A study of Mus musculus with 12 samples.

Results

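The GABA-A receptor genes followed here are *Gabra2*, *Gabra3*, *Gabra4*, *Gabra5*, *Gabrb1*, *Gabrb2* and *Gabrd*, a named set of 7 among the 55413 genes annotated on the mouse chromosomes 1 to 19, X and Y. They were chosen by name. For each, H4K12ac peaks were read within 2 kb of the transcription start site (TSS, the annotated 5′ end of the gene) and in the gene body behind this window. The peaks came from H4K12ac ChIP-Seq of neuronal nuclei that were isolated from whole hippocampi and sorted by FACS, with 5 *Tip60* cKO and 5 control mice and 1 library per mouse. *Tip60* cKO mice carried the CaMKCreERT2 driver and 2 floxed *Tip60* alleles (*Tip60* f/f), and control mice were *Tip60* f/f without the driver, so the floxed alleles and the tamoxifen injections were common to both groups. Nuclei were taken 10 days after tamoxifen had ended, and the labels give an age of 3 months, male sex and the strain C57BL/6J, whereas the methods of the study name mice of either sex on a C57BL/6N background. The driver acts in postmitotic excitatory neurons of the forebrain, so that interneurons and glia keep TIP60, and the sort did not separate excitatory from inhibitory neurons. Input chromatin was 1 pooled library per genotype, so that all lists of a genotype share 1 input. At a given locus, a difference between the pooled inputs cannot be told apart from one between the genotypes.

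GABA-A receptors are chloride channels of 5 subunits that open when GABA binds and carry most of the fast inhibition in the brain. The alpha subunits set the sensitivity to GABA and to benzodiazepines and steer the receptor to synaptic or extrasynaptic sites. The beta subunits form the GABA binding site together with alpha subunits, and the delta subunit is part of extrasynaptic receptors that carry tonic inhibition. TIP60 (KAT5) is a lysine acetyltransferase, and H4K12ac is a histone mark found at active promoters and within transcribed genes.

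*Gabra2*, *Gabra4* and *Gabrb1* lie in a cluster on chromosome 5, *Gabra5* on chromosome 7, *Gabrb2* on chromosome 11, *Gabrd* on chromosome 4 and *Gabra3* on the X chromosome. *Gabra4* and *Gabrb1* are transcribed away from each other from 5′ ends that are 195 bp apart, so that their TSS windows share 3805 bp and hold the same acetylated site. The 6 genes with TSS peaks thus make 5 sites. *Gabrb1* has a second start of a protein-coding transcript 41.8 kb inside the gene. Promoter sequences of RefSeq, 250 bases before to 50 after an annotated start on GRCm38.p6, were given for 6 of the 7 genes with 10 starts in all. The promoters of *Gabra2* and *Gabra3* are shown because they belong to the members with the highest level and with no peak at all, that of *Gabra4* for the shared site, and the inner *Gabrb1* start for its contrast with that site. Capitals mark CpG dinucleotides, and each sequence runs 5′ to 3′ on the strand of its gene.
Gabra2 (chr5:71095800-71096099, minus strand): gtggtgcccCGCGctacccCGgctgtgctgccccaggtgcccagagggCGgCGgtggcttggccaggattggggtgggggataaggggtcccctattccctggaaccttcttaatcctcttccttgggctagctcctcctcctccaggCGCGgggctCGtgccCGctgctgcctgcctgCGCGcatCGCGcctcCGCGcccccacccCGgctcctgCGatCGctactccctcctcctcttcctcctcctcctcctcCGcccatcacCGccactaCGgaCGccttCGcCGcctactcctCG
Gabra3 (chrX:72656870-72657169, minus strand): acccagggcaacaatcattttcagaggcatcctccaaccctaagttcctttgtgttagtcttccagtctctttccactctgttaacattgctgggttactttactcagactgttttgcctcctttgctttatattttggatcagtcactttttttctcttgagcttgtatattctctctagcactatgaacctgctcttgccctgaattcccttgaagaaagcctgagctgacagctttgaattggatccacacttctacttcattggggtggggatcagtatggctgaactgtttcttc
Gabra4 (chr5:71658259-71658558, minus strand): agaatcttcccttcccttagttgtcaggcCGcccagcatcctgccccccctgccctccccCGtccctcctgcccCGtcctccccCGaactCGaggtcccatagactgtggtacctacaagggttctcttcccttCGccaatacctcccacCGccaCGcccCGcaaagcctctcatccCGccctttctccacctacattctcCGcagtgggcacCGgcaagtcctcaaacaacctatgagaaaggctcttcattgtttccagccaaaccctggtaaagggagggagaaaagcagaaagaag
Gabrb1 inner start (chr5:71699682-71699981, plus strand): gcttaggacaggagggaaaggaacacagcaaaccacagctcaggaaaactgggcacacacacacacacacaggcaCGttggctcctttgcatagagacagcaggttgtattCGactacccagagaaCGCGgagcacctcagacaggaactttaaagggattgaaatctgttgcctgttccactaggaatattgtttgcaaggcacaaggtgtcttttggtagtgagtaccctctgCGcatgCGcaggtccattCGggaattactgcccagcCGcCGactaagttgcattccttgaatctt
The *Gabra2* promoter holds 25 CpGs, more than 81.6% of the 32851 promoters in the table, as does that of the upstream *Gabrb1* start of RefSeq (chr5:71657671-71657970). This window does not contain the annotated 5′ end of *Gabrb1* around which peaks were read, nor do the *Gabrb2* windows or the *Gabra3* window printed here contain those of their genes. The *Gabra4* promoter holds 12 CpGs and the inner *Gabrb1* promoter 9. Both *Gabra3* promoters hold 0, against a median of 7 over all promoters. The *Gabra5* promoter holds 13, and the 3 starts of *Gabrb2* hold 11, 9 and 9. On either strand, the GC box GGGCGG was found in the *Gabra2* and *Gabra4* promoters, each with 2 copies, and in 1 of the 3 *Gabrb2* promoters, and 35.7% of all promoters hold it. TATAAA was found in 1 *Gabrb2* promoter and in both *Gabra3* promoters (13.6% of all promoters). None of the 10 held the cAMP response element TGACGTCA (1.79% of all promoters), the E-box CACGTG (7.15%) or the EGR motifs GCGTGGGCG and GCGGGGGCG (3.47% with either). Such matches describe the letters of these windows and not the binding of a factor.

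The libraries differed in depth. Between 22864189 and 37077725 tags of *Tip60* cKO and between 27418740 and 37923809 tags of control libraries had entered peak calling, and gave 64245 to 135494 and 93575 to 136409 peaks. *Tip60* cKO 5 was lowest in both. The median fold enrichment of the strongest TSS peak, over genes with a peak, lay between 4.85 and 5.15 in the *Tip60* cKO and between 5.21 and 5.55 in the control libraries. Of the labelled cell type, 4 of 5 pan-neuronal and 4 of 5 excitatory markers had a TSS peak in all 10 lists. Their mean rank scores were 65.2 to 85.8 and 66.4 to 84.0 in *Tip60* cKO, and 85.8 to 88.8 and 71.0 to 86.8 in controls. Of 8 inhibitory neuron markers none had a peak in all lists, *Gad1* and *Sst* had none in any, and the mean rank score was 0 to 24.9 and 0 to 9.42. *Aqp4* and *Aldh1l1* of 5 astrocyte, *Mog*, *Mag* and *Olig2* among the oligodendrocyte, *Cx3cr1*, *Csf1r*, *Aif1* and *Tmem119* of 5 microglial, and *Pecam1* and *Tek* of 4 endothelial markers had no TSS peak in any list. The targeted gene *Kat5* had TSS peaks throughout the lists, whose rank score averaged 94.8 ± 5.07 in *Tip60* cKO and 97.6 ± 2.08 in controls (SD, n = 5; exact permutation p = 0.294). Before ranking, the fold enrichment of its strongest TSS peak was 7.11 ± 1.26 in *Tip60* cKO against 9.03 ± 0.789 in controls (exact permutation p = 0.0317). Peaks do not measure the recombination of *Kat5*. On the Y chromosome the lists of *Tip60* cKO 2 and control 2 held 64 and 68 peaks and the other lists 1 to 6, although the labels give male sex for all. In these sorted nuclei, fewer cells of a type and less acetylation per cell cannot be told apart.

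Of the 7 genes, 6 had an H4K12ac peak at the TSS in all 10 lists, and *Gabra3* had none. At all 6 the mean share of the TSS window covered by peaks was lower in *Tip60* cKO. The mean height of the strongest peak, ranked within each library, was lower at 1 of the 6, against 55.6% of all genes. Before ranking, the mean fold enrichment of that peak was lower in *Tip60* cKO at 4, with 8.28 against 9.52 at *Gabra2*, 7.08 against 8.10 at *Gabra5*, 6.80 against 7.41 at *Gabrb2* and 4.97 against 5.57 at *Gabrd* (exact permutation p from 0.119 to 0.310), and higher at the shared *Gabra4* and *Gabrb1* site. Height was taken as the TSS rank score, the percent rank of the strongest peak by fold enrichment among the windows of all genes of a library (0 without a peak). Width was taken as TSS coverage, the share of the 4 kb window inside peaks. No member passed an adjusted p of 0.05 for either by limma, against 0.235% of 21671 genes called for the rank score and 1.56% for coverage. At an unadjusted p below 0.05, 4 of the 5 sites had less coverage in *Tip60* cKO, against 22.3% of all genes, and 1 of 5, the shared *Gabra4* and *Gabrb1* site, differed in rank score, against 11.8%. The median coverage difference was -12.9 percentage points over the 5 sites and -4.01 over all genes, of which 81.0% had a lower mean in *Tip60* cKO. In controls the TSS coverage of the 6 members was above that of 83.5 to 94.3% of the genes tested. Whether the size of the difference goes with the coverage in controls was not tested. No member had all 5 *Tip60* cKO values on one side of all 5 control values in rank score, where 1.62% of genes were lower and 1.93% higher without overlap, or in coverage (5.23% and 0.157%). Two-sided exact permutation tests of 5 against 5 mice have 252 assignments and cannot go below 0.00794.

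**Figure D1:**
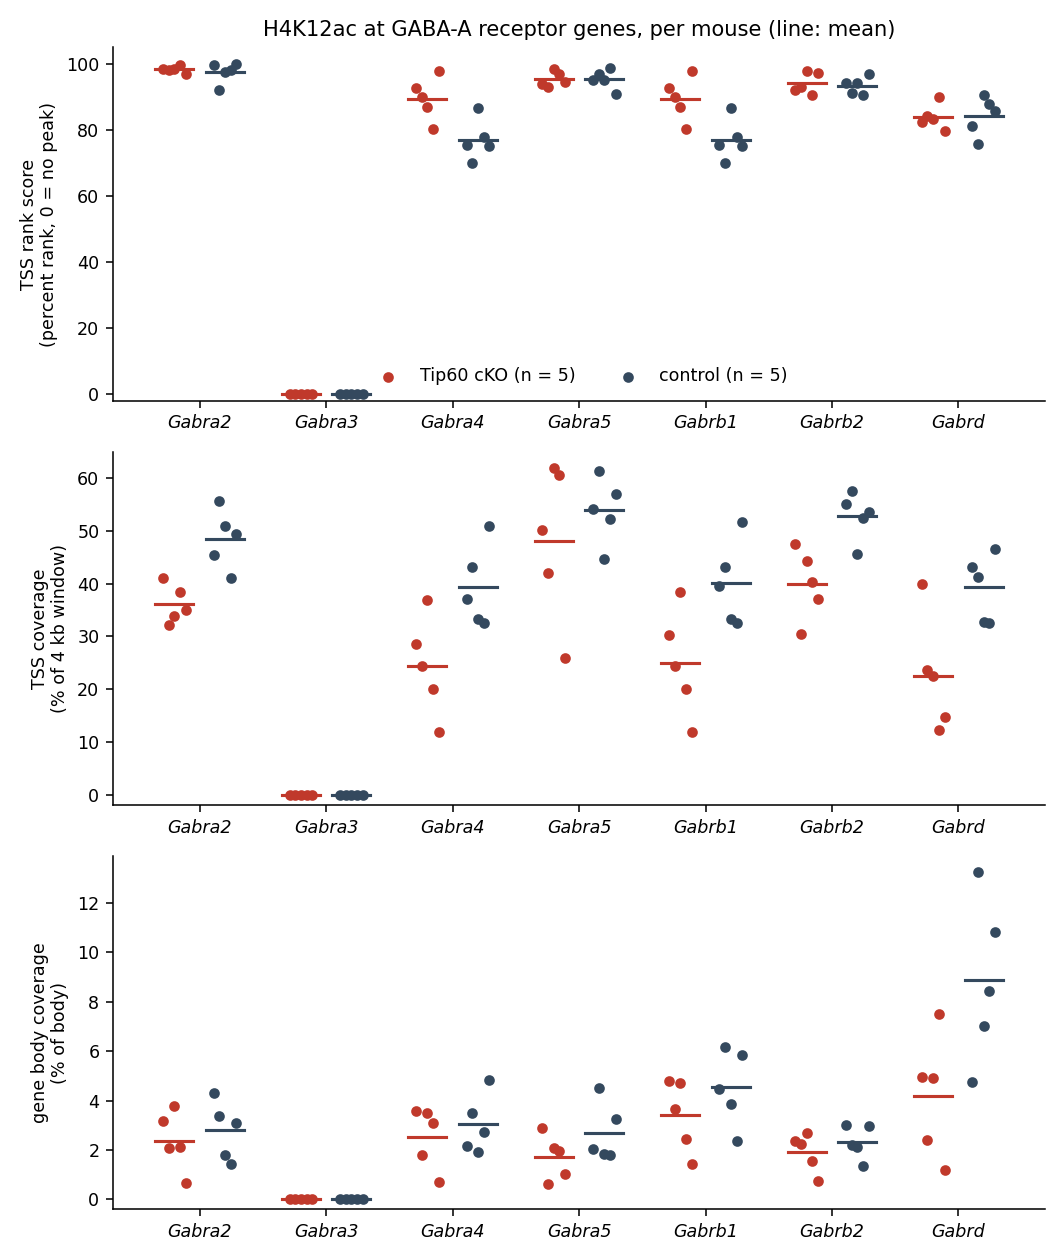
TSS rank score (top, percent rank), TSS coverage (middle, percent of the 4 kb window) and gene body coverage (bottom, percent of the body) of the 7 genes, with 1 point per mouse and a line at the mean. Mean coverage at the TSS is lower in *Tip60* cKO at 6 genes. The values of the genotypes overlap in both TSS measures, and *Gabra3* is at 0 throughout.

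*Gabra2* encodes the alpha2 subunit, which is found at synapses on the axon initial segment of pyramidal cells. It had the highest rank score of the 7 in controls. The scores were 98.4, 98.2, 98.3, 99.6 and 96.8 in *Tip60* cKO and 99.5, 92.1, 97.6, 98.1 and 99.9 in controls, and all but that of control 2, the lowest, lay close together (difference 0.830, exact permutation p = 0.746). Coverage of its TSS window was 41.2, 32.2, 33.8, 38.5 and 35.1% in *Tip60* cKO and 45.5, 55.7, 50.9, 41.1 and 49.3% in controls. A single control mouse, control 4, lay within the range of *Tip60* cKO, at its upper end. The mean was 36.1 ± 3.62% against 48.5 ± 5.53% (SD, n = 5; exact permutation p = 0.0159; limma adjusted p = 0.0601). The difference was -15.0 percentage points in the first sequencing lane (3 mice per genotype) and -8.45 in the second (2 mice). The annotated 5′ end lay inside a peak in all 10 lists.

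*Gabra5* encodes the alpha5 subunit of extrasynaptic receptors that are abundant in CA1 pyramidal cells. Its rank scores were 94.0, 93.1, 98.3, 96.8 and 94.6 in *Tip60* cKO and 95.0, 96.8, 94.9, 98.8 and 91.0 in controls (difference 0.0632, exact permutation p = 0.984). Its TSS coverage was 50.2, 42.0, 62.0, 60.6 and 25.9% in *Tip60* cKO and 54.2, 61.3, 44.7, 52.3 and 57.0% in controls. The lowest value was that of *Tip60* cKO 5, and without it the difference of -5.76 percentage points was -0.211 (exact permutation p = 0.492 with all mice and 0.976 without it). The 5′ end lay inside a peak in 1 of 5 *Tip60* cKO and 4 of 5 control lists. A second coding start lies 0.688 kb inside the gene, and the same strongest peak served both. Around this start coverage differed by -10.5 points (p = 0.190 by the exact permutation test), and by -5.03 without *Tip60* cKO 5.

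*Gabra3*, the alpha3 subunit gene, had no H4K12ac peak in its TSS window or in its 224 kb in any of the 10 lists. The peak nearest to the gene was 328 to 469 kb away. On the X chromosome, 11.5 to 21.5% of 948 protein-coding genes in *Tip60* cKO and 21.0 to 27.6% in control lists had a TSS peak, against 52.2 to 60.0% and 57.9 to 60.0% of 20807 autosomal genes. A missing peak means that the signal stayed below the threshold of peak calling, not that the mark was absent.

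*Gabra4* and *Gabrb1* share their start. *Gabra4* encodes the alpha4 subunit, which pairs with delta in dentate granule cells, and *Gabrb1* the beta1 subunit. At this site the mean rank of the strongest peak was higher in *Tip60* cKO and the mean coverage of the window lower. The strongest peak did not lie at the same place in all lists. Behind the *Gabra4* 5′ end, its summit lay at 1533 bp in *Tip60* cKO 4, at 56 bp in control 1 and at 50 bp in control 4. In the other lists it lay at 487 to 705 bp, so that the heights compared are in part those of different peaks. The rank scores were 92.5, 89.9, 86.8, 80.2 and 97.9 in *Tip60* cKO and 75.3, 70.0, 86.7, 77.8 and 75.0 in controls. Only *Tip60* cKO 4 and control 3 crossed, and the difference of 12.5 was 12.4 in the first lane and 12.6 in the second (exact permutation p = 0.0159; limma adjusted p = 0.285). The fold enrichment of the strongest peak was 6.60, 5.65, 5.39, 4.63 and 7.42 in *Tip60* cKO and 4.07, 3.39, 6.22, 4.43 and 4.12 in controls (5.94 ± 1.09 against 4.45 ± 1.06, SD, n = 5; exact permutation p = 0.0794). Its pileup, the height before division by the background, was 26.4 ± 3.85 against 24.6 ± 6.19 fragments. The background that MACS had used there was 1.93 times the genome-wide level in control 2 and 1.67 times in control 5, and 1.05 to 1.21 times in the other 8 libraries. All lists of a genotype were called against the same pooled input. With windows ranked by pileup the difference was 4.25 (exact permutation p = 0.183). Ranked by fold enrichment but without control 2 and control 5, a choice made after these values were seen, the difference was 9.52 (p = 0.0893 by the exact permutation test). With 5 against 3 mice, 0.0179 is the smallest value possible in this test.

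Coverage of the shared site, in the *Gabrb1* window, was 30.2, 24.3, 38.4, 20.1 and 11.9% in *Tip60* cKO and 39.5, 43.2, 33.4, 32.6 and 51.7% in controls. *Tip60* cKO 3 alone reached the controls. The mean was 24.98 ± 10.01% against 40.0 ± 7.82% (SD, n = 5; exact permutation p = 0.0317; limma adjusted p = 0.120), and in the *Gabra4* window 24.3 ± 9.30% against 39.4 ± 7.66% (exact permutation p = 0.0238; limma adjusted p = 0.109). With windows of 1 kb on either side the coverage of both genes passed the threshold, with differences of -19.1 percentage points at *Gabra4* (limma adjusted p = 0.0389) and -22.6 at *Gabrb1* (0.0342), against 2.27% of genes called, and the genotypes no longer overlapped (exact permutation p = 0.00794 for both), as at 5.31% of genes. With the same number of peaks taken from each library, the difference was -0.840 at *Gabra4* and -0.350 at *Gabrb1*. Without *Tip60* cKO 5, the library with the fewest tags, it was -12.0 and -11.8 in the windows of 2 kb (exact permutation p = 0.0635 and 0.0714).

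The peaks were then compared at the 5′ ends themselves. In every control list a peak reached over the 5′ end of *Gabrb1*, and in no *Tip60* cKO list did one. The 5′ end of *Gabra4* lay inside a peak in 4 of 5 control and 0 of 5 *Tip60* cKO lists. Upstream of *Gabrb1*, inside *Gabra4*, all 10 lists held a peak. This base was looked at after the peaks had been seen, so the count is a description. A split of 0 of 5 against 5 of 5 lists at the 5′ end was found for 0.185% of the 21671 genes, and the opposite split for 0.0231%. Fewer *Tip60* cKO than control lists covered the 5′ end at 31.8% of genes, and 28.3% of 5′ ends were covered in the mean *Tip60* cKO list and 35.8% in the mean control list.

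**Figure D2:**
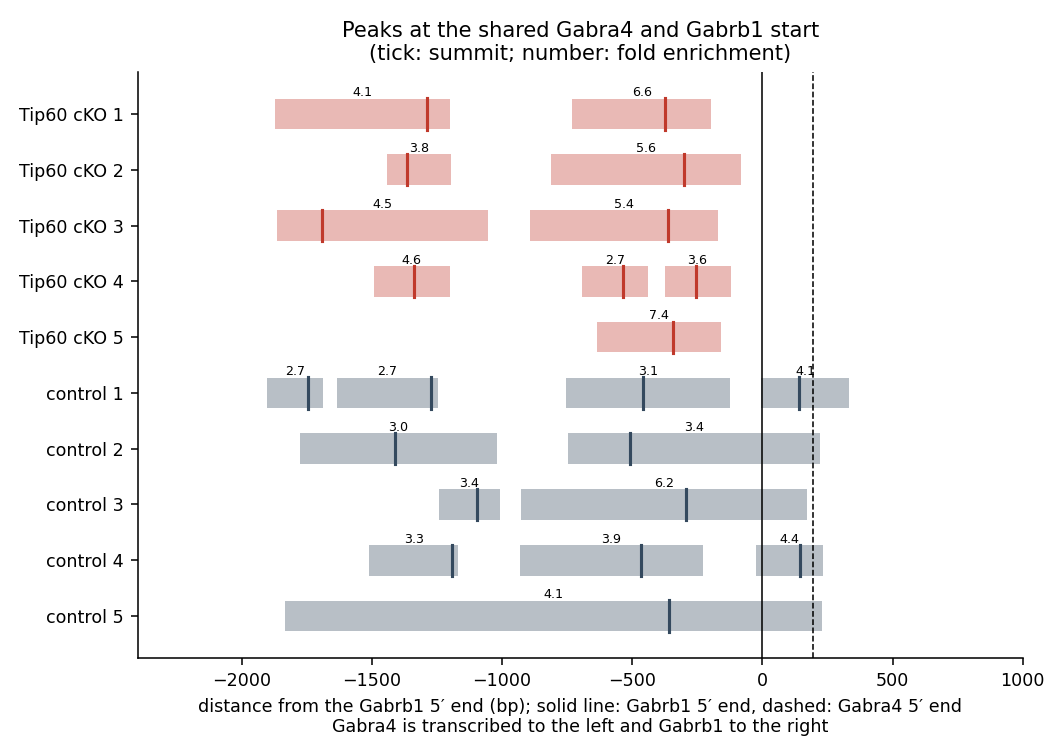
Peaks of each list (bars), their summits (ticks) and fold enrichments (numbers) by distance in bp from the *Gabrb1* 5′ end (solid line), with the *Gabra4* 5′ end dashed. Peaks of the 5 control lists cross the *Gabrb1* 5′ end, and those of the 5 *Tip60* cKO lists end before it.

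The inner start of *Gabrb1* had a peak in its window in all 10 lists as well. Its rank scores were 91.0, 89.1, 81.5, 86.4 and 84.7 in *Tip60* cKO and 93.3, 84.0, 94.1, 91.4 and 96.1 in controls. Here the mean was lower in *Tip60* cKO (difference -5.22, exact permutation p = 0.103), whereas at the outer start it was higher. When both starts were taken for *Gabrb1*, the difference in rank score was -1.11 and no longer 12.5. Coverage around the inner start was 32.02 ± 16.2% against 38.5 ± 8.32% (SD, n = 5; exact permutation p = 0.476). This difference of -6.52 percentage points was -0.429 without *Tip60* cKO 5. The inner start itself lay inside a peak in 2 *Tip60* cKO lists and 1 control list.

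*Gabrb2* encodes the beta2 subunit of many synaptic receptors. Its rank scores were 92.1, 93.1, 97.8, 90.6 and 97.3 in *Tip60* cKO and 94.0, 91.3, 94.1, 90.5 and 96.9 in controls (difference 0.820, exact permutation p = 0.659). Its TSS coverage was 47.6, 30.4, 44.3, 40.4 and 37.0% in *Tip60* cKO and 55.2, 57.5, 45.7, 52.5 and 53.5% in controls. Only control 3 lay below the highest *Tip60* cKO value, that of *Tip60* cKO 1. The mean was 39.9 ± 6.66% against 52.9 ± 4.44% (SD, n = 5; exact permutation p = 0.0159; limma adjusted p = 0.0740), with -12.0 percentage points in the first lane and -14.3 in the second. The 5′ end lay inside a peak in all 10 lists, and around a second coding start, 1.59 kb inside the gene, the coverage difference was -7.73 (exact permutation p = 0.143).

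*Gabrd* encodes the delta subunit, which in the hippocampus is found mainly in dentate granule cells and in some interneurons. Its rank scores were 82.3, 84.2, 83.2, 90.1 and 79.6 in *Tip60* cKO and 81.1, 75.8, 90.7, 87.8 and 85.5 in controls (difference -0.325, exact permutation p = 0.913). TSS coverage was 39.9, 23.6, 22.4, 12.2 and 14.6% in *Tip60* cKO and 43.2, 41.3, 32.8, 32.5 and 46.6% in controls. Apart from *Tip60* cKO 1, all *Tip60* cKO values lay below all controls. The mean was 22.6 ± 10.9% against 39.3 ± 6.36% (SD, n = 5; exact permutation p = 0.0238; limma adjusted p = 0.0940), a difference of -16.7 percentage points, with -10.5 in the first lane and -26.2 in the second. With only peaks counted whose summit lay in the window, it was -10.8 (exact permutation p = 0.119), and with windows of 1 kb -9.14 (exact permutation p = 0.167). The 5′ end of *Gabrd* itself was inside a peak in 1 list.

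**Figure D3:**
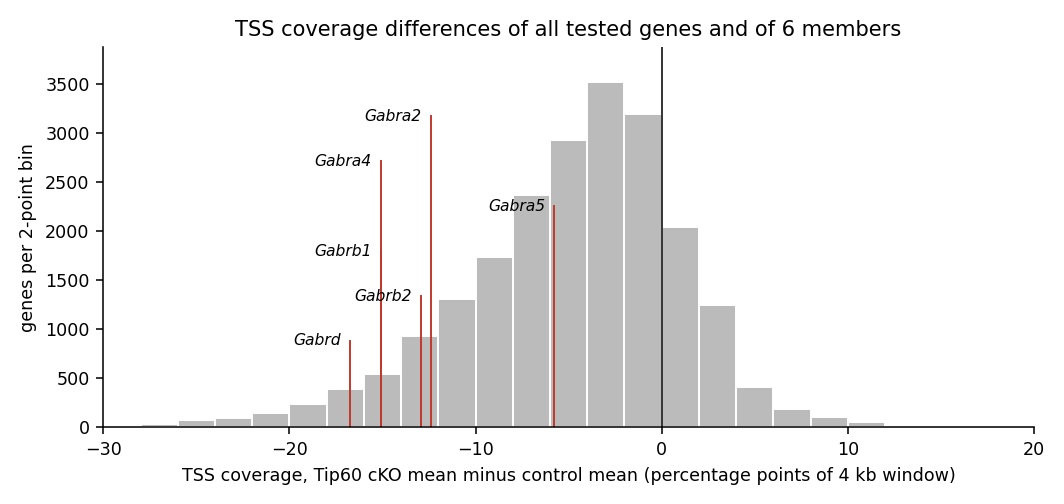
TSS coverage of *Tip60* cKO minus control, in percentage points of the 4 kb window, for 21671 genes (grey bars, genes per bin) and for 6 members (red lines; *Gabra4* and *Gabrb1* fall together). The members lie between -16.7 and -5.76, all below the median of -4.01.

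In controls, the order by rank score was *Gabra2* (97.5), *Gabra5* (95.3), *Gabrb2* (93.3), *Gabrd* (84.2), the shared *Gabra4* and *Gabrb1* site (77.0) and *Gabra3* (0). *Gabra2* exceeded *Gabra5* in 3 of 5 control mice and *Gabra5* exceeded *Gabrb2* in 4 of 5, with differences of 2.16 ± 5.18 and 1.94 ± 5.44 (SD, n = 5), so these neighbours did not differ beyond their spread. *Gabrb2* exceeded *Gabrd* by 9.16 ± 5.76 and *Gabrd* exceeded the shared site by 7.21 ± 2.86, each in 5 of 5. *Gabra2* stood above 96.4% and the shared site above 40.9% of the genes tested. The protein-coding genes whose rank scores over the 10 libraries came nearest to a member, by root mean squared difference, were *Elk4* for *Gabra2* (1.14), *Sec24b* for *Gabra5* (1.17), *Helz* for *Gabrb2* (1.51), *Tmem254c* for *Gabrd* (3.30) and *Ippk* for the shared site (3.50).

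In the gene bodies peaks covered far less, and the means of 6 genes were lower in *Tip60* cKO, as were those of 74.2% of 12823 genes. With the same number of peaks taken from each library, the means of *Gabra2*, *Gabra4* and *Gabrb2* were higher in *Tip60* cKO. No member was called by limma, against 0.351% of genes, and 1 of 6, *Gabrd*, had an unadjusted p below 0.05 (15.7% of genes). The body of *Gabrd* was covered to 4.95, 2.42, 4.91, 7.50 and 1.18% in *Tip60* cKO and to 4.77, 13.2, 7.01, 8.44 and 10.8% in controls. Its means of 4.19 ± 2.46% and 8.86 ± 3.29% (SD, n = 5; exact permutation p = 0.0556; limma adjusted p = 0.250) rest on 1 to 4 peaks per list in 11.1 kb. The body of *Gabrb1* was covered to 3.40 ± 1.45% and 4.54 ± 1.55%, with 25 to 63 peaks per *Tip60* cKO and 34 to 77 per control list (exact permutation p = 0.278 for coverage). *Gabra2*, *Gabra4*, *Gabra5* and *Gabrb2* had body coverages of 1.72 to 2.52% in *Tip60* cKO and 2.33 to 3.03% in controls, with exact permutation p-values from 0.198 to 0.587.

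Peaks merged over the lists and found in at least 2 of them gave 159 regions at these genes, 7 at a TSS and 152 in the bodies, of which 144 overlapped no exon. *Gabrb1* held 89 of them, *Gabrb2* 28, *Gabra2* 19, *Gabra5* 13, *Gabra4* 8 and *Gabrd* 3, with the shared start counted for both genes. Of the body regions, 7 were within 2 kb of the start of another annotated gene. In all, 16 regions had a peak in all 10 lists and 103 in only 2 to 4. By limma on the rank score none was called, against 0.561% of 144701 regions in the genome, while 27 had an unadjusted p below 0.05, against 12.0% of all regions. Of these 20 were lower and 7 higher in *Tip60* cKO (8.34% and 3.68% of all regions). The mean was lower in *Tip60* cKO in 97 of the 159, or 61.0%, against 56.9% of all regions.

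In 3 of the 159 regions (1.89%) the genotypes did not overlap, a share near the 2.12% of all regions. Of these, 1 was lower and 2 were higher in *Tip60* cKO, against 1.34% and 0.783% of all regions. They were picked for this, which fixes their order, so that their values are a description. Each is intronic, with a peak in 8 lists. In *Gabrb1*, 327 kb behind the 5′ end (chr5:71985153-71985812), the scores were 42.1, 51.2, 50.5, 0 and 0 in *Tip60* cKO and 70.0, 60.4, 78.3, 74.4 and 63.3 in controls (limma adjusted p = 0.222). In *Gabrb2*, 84.5 kb behind the 5′ end (chr11:42503944-42504551), they were 76.1, 68.7, 57.6, 79.4 and 89.9 in *Tip60* cKO and 50.1, 0, 51.3, 0 and 51.5 in controls (limma adjusted p = 0.231). In *Gabra2*, 37.6 kb behind the 5′ end (chr5:71057993-71058553), they were 86.8, 80.3, 85.5, 84.2 and 94.9 in *Tip60* cKO and 76.7, 0, 0, 73.1 and 39.0 in controls (limma adjusted p = 0.324). The 200 bases around the median summit of each are shown on the plus strand of GRCm38.p6, with CpGs in capitals, as examples of intronic peaks in these genes.
Gabrb1 intron (chr5:71985511-71985710): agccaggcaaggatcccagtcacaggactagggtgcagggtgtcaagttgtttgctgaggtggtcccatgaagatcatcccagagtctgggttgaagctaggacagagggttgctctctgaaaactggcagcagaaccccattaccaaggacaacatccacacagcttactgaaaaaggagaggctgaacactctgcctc
Gabrb2 intron (chr11:42504206-42504405): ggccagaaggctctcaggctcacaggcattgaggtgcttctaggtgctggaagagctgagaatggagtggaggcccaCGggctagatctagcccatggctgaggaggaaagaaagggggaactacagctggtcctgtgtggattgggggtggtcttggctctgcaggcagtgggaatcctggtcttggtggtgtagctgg
Gabra2 intron (chr5:71058208-71058407): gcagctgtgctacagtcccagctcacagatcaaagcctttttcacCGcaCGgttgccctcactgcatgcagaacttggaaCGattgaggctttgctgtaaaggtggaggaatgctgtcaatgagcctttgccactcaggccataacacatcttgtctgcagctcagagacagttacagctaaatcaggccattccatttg
They hold 0, 1 and 3 CpGs. The strongest body region of *Gabrb2* (chr11:42572021-42572916, intron, 153 kb behind the 5′ end) was present in all 10 lists, and scored 84.7 ± 10.9 in *Tip60* cKO against 62.8 ± 8.58 in controls (SD, n = 5; exact permutation p = 0.0159; limma adjusted p = 0.342). That of *Gabrb1* was its inner start (chr5:71699155-71701701), with 92.8 ± 3.30 against 96.7 ± 2.34. Those of *Gabra4* (chr5:71602869-71606252) and *Gabra2* (chr5:70995762-70997089), both intronic, had 86.3 ± 4.87 against 83.0 ± 8.80 and differed by 11.7 at *Gabra2*, where 1 control list had no peak, both within the spread (exact permutation p = 0.468 and 0.762). The strongest body region of *Gabra5* (chr7:57486548-57487424, intron) was in 8 lists and differed by 7.59 (exact permutation p = 0.571), and that of *Gabrd* (chr4:155388813-155389392, overlapping an exon) was in 3 lists. The strongest regions at the TSSs of *Gabra2*, *Gabra5*, *Gabrb2* and *Gabrd* differed by 0.245, -0.111, 0.0628 and 6.83 in rank score, and the shared one of *Gabra4* and *Gabrb1* by 13.9 (exact permutation p = 0.0238; limma adjusted p = 0.418).

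**Figure D4:**
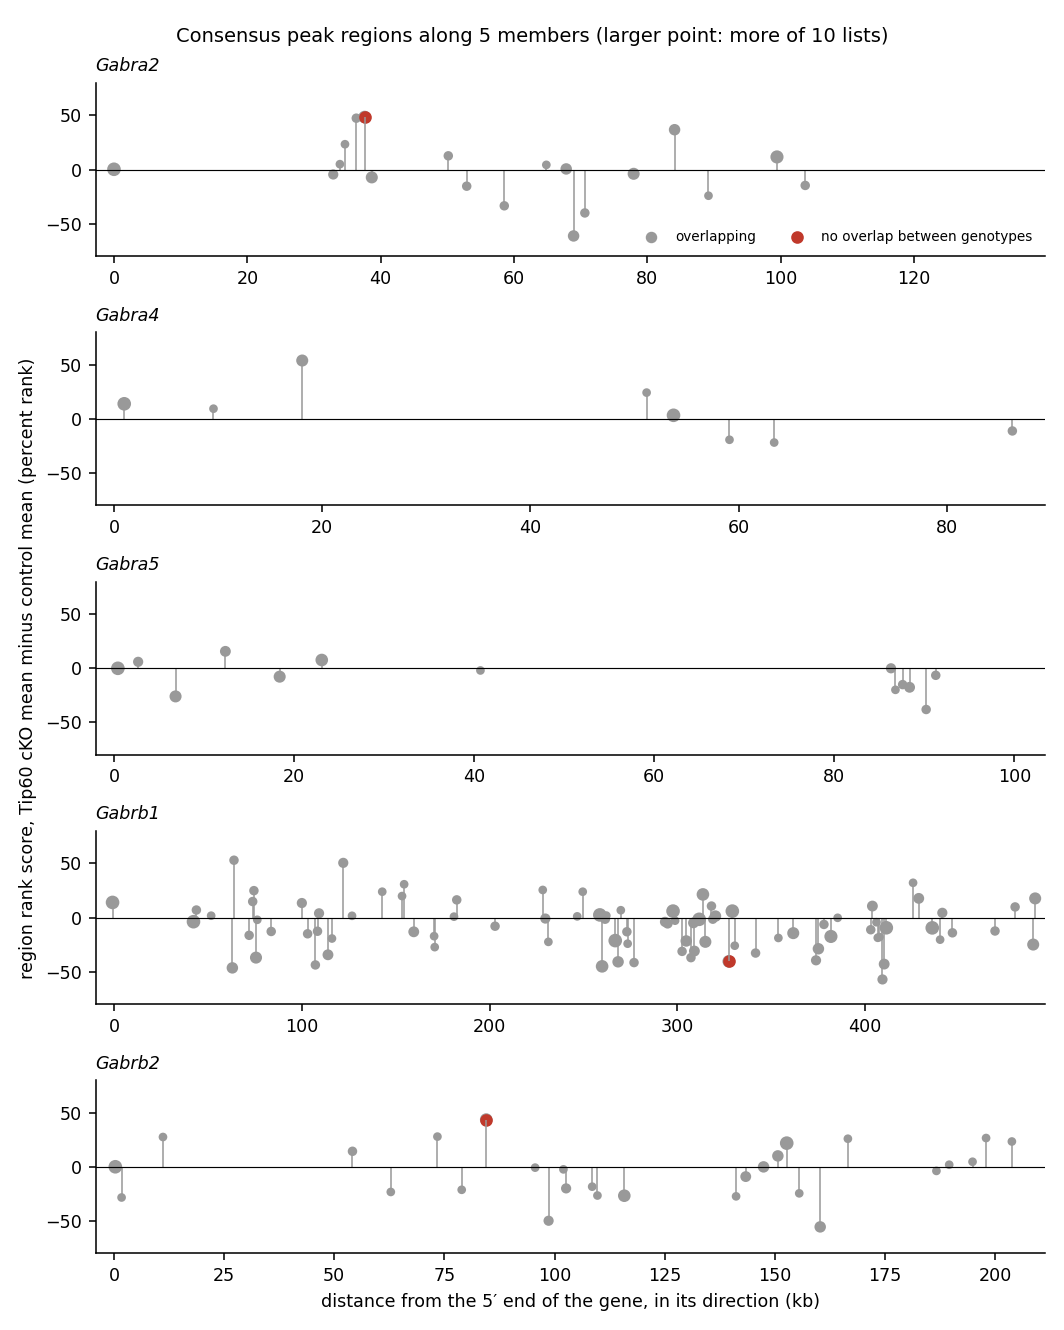
Difference in region rank score (percent rank, *Tip60* cKO minus control) by distance in kb from the 5′ end, for merged regions of 5 genes, with larger points for peaks in more lists. The 3 red points are the regions without overlap, 1 below 0 in *Gabrb1* and 2 above 0 in *Gabra2* and *Gabrb2*.

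Other genes of the GABA synapse were read from a list of 23, of which 21 had TSS peaks in at least 2 lists. By limma 0 passed the adjusted threshold for rank score, coverage or body coverage, against 0.235%, 1.56% and 0.351% of all genes. At an unadjusted p below 0.05, 4 of 21 differed in rank score (11.8% of all genes), 13 of 21 had less TSS coverage in *Tip60* cKO (22.3%) and 3 of 18 differed in body coverage (15.7%). The mean TSS coverage was lower in *Tip60* cKO at 19 of 21, as at 81.0% of all genes, with a median difference of -10.7 percentage points against -4.01. Without overlap and lower in *Tip60* cKO were 2 of the 21 in rank score (1.62% of all genes) and 3 in coverage (5.23%). Of the genes for GABA synthesis, transport and breakdown, *Gad1*, the GABA-synthesising enzyme of interneurons, had no TSS peak in any list but 2 to 12 peaks per list in its body, and *Slc6a11*, a GABA transporter, had the highest rank score in controls (94.7 ± 4.70). At the chloride importer *Slc12a2* rank scores averaged 81.7 ± 2.60 in *Tip60* cKO against 86.8 ± 2.08 in controls, and at the receptor-trafficking gene *Gabarap* 74.5 ± 5.58 against 90.6 ± 4.24, both without overlap (SD, n = 5; exact permutation p = 0.00794; limma adjusted p = 0.347 and 0.112). TSS coverage did not overlap at *Gabarapl1*, a relative of *Gabarap*, at *Lhfpl4*, which holds receptors at the synapse, and at *Gabbr2*, a GABA-B receptor subunit, where it was 57.0 ± 4.57% against 70.1 ± 5.17% (exact permutation p = 0.00794; limma adjusted p = 0.0583). *Lhfpl4* (98.0 ± 0.898) and *Gabbr2* (98.4 ± 1.09) had the highest rank scores in controls within their roles. The chloride exporter *Slc12a5* (75.5 ± 4.41) and the GABA-B auxiliary subunit *Kctd8* (71.6 ± 3.82) had the lowest within theirs.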

How the data were processed

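H4K12ac ChIP-Seq peak lists of 10 mice were used. STAR was the authors' aligner (mm10), samtools took out duplicate reads, and MACS 2.1.0.20140616 called the peaks of each mouse at q 0.1 against 1 pooled input per genotype. The deposited pileup is a signal of coverage, the number of fragments over the summit, and the deposited fold enrichment is its ratio to the local background, with 1 added to both. The deposited p-value and q-value are −log10 values. The lists hold no counts per region, so the depth behind a single region is unknown and precision is the spread between mice. No column of another sample was used (0).

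Genes and starts came from GENCODE M21 on GRCm38, the same build as mm10. A peak counted where 1 base overlapped. Rank scores and coverages were computed in Python 3.11.15 (numpy 2.4.6, pandas 2.3.3) and compared with limma 3.58.1 in R 4.3.3, over every gene or region that had peaks in 2 lists or more, without covariates and with Benjamini-Hochberg adjustment at 0.05. Bodies were used of genes over 4 kb. Single values were compared by two-sided exact permutation tests. These tests and limma treat the lists of a genotype as independent, although they share 1 pooled input. The limma step was tested on simulated data with shifts of 2 and 4 within-group SDs. Shifts of 2 SDs were mostly missed, with 0 to 2.5% recovered by measure. Shifts of 4 SDs were recovered to 29 to 88%, in the right direction. The share of false calls at 4 SDs exceeded the threshold in every measure but TSS coverage.

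Groups followed the labelled genotype, and lanes were read from the names of the deposited files. Each library is 1 mouse. The members and gene lists were chosen with earlier results of these data known. All 7 members were named, with all their coding starts (merged within 500 bp), the strongest region at each TSS and in each body, regions called or without overlap, and in the GABA synapse list the genes called, without overlap, or highest or lowest in controls within a role. Single genes of the marker and synapse lists that these rules name are in part not reported here. Alternatives were a stricter q of 0.01, equal numbers of peaks (the 64245 strongest), pileup in place of fold enrichment, 1 kb windows, starts of all coding transcripts, summits in the window, at least 5 lists, a mean-dependent robust prior, lane as a term, replicate number as a block, and each library left out.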

Additional observations from a re-analysis of the deposited data

How the results depend on the processing

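The results rest on peaks past a threshold, and the lists say nothing of signal below it. How far the number and length of peaks follow depth was not tested. With 5 mice per genotype and 21671 genes or 144701 regions adjusted together, moderate differences at single genes can go uncalled.

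The numbers 1 to 5 of the mice were not used as pairs in the main tests. Same-numbered mice had correlations of 0.0108, -0.00225, -0.0103, 0.0229 and -0.00332 in their deviations from the group means. Of 5 *Tip60* cKO mice, 1 (number 4) correlated best with the control of its own number. Such correlations cannot exclude a pairing. Same-numbered mice shared a sequencing lane, and number 2 of both genotypes had the most peaks on the Y chromosome (64 and 68). With the replicate block the members called stayed at 0 in every measure.

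Of the 73 alternative counts of called members or regions 65 equalled the main count of 0. Windows of 1 kb called 2 members for TSS coverage, both at the shared start of *Gabra4* and *Gabrb1*. Leaving out 1 library gave 0 to 3 members called for TSS coverage, with 3 (*Gabra2*, *Gabrb2* and *Gabrd*) without *Tip60* cKO 1 and 1 (*Gabra2*) without control 4, and 0 to 2 member regions called, with 2 without *Tip60* cKO 3 or control 1 and 1 without *Tip60* cKO 1, *Tip60* cKO 4 or control 4. The shares of all genes and regions called with the same library left out are not given here, so these counts were not set against them. The rank score count at the TSS and the body count stayed at 0. The TSS coverage differences of the 6 members kept their sign under all alternatives run, but not their size. With the same number of peaks they were -12.1 (*Gabra2*), -12.7 (*Gabrb2*), -13.9 (*Gabrd*), -3.65 (*Gabra5*), -0.840 (*Gabra4*) and -0.350 (*Gabrb1*).

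Signs turned in 32 of the single values, none of them called. With all coding starts the *Gabrb1* TSS rank score difference was -1.11. That of *Gabrd* was 1.95 with 1 kb windows and 2.01 with summits in the window. With the same number of peaks, body coverage differences were 0.108 (*Gabra2*), 0.350 (*Gabra4*) and 0.454 (*Gabrb2*), and the strongest body region of *Gabra2* differed by -1.04. Ranking by pileup gave 0.281 at the *Gabra5* TSS region and -3.65 at that of *Gabrd*. Over the libraries left out, TSS rank score differences ranged from -0.503 to 1.45 (*Gabra2*), -1.02 to 0.943 (*Gabra5*), -0.0851 to 1.71 (*Gabrb2*) and -2.41 to 1.30 (*Gabrd*), and region differences from -0.236 to 0.464 (*Gabra2* TSS), -4.56 to 19.0 (*Gabra2* body), -0.607 to 0.224 (*Gabra5* TSS), -5.45 to 22.5 (*Gabra5* body), -0.322 to 0.445 (*Gabrb2* TSS) and -2.46 to 10.2 (*Gabrd* TSS). The cause was not tested.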
